A study of Mus musculus with 8 samples.

Results

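TRBV23, TRBV26 and TRBV30 are variable segments of the mouse T cell receptor beta chain that lie at the 3′ end of the main TRBV array, and their use was described in T cells of the brain. Included were all productive TRB chains whose deposited V gene name was one of these 3 names. They were carried by 273 of 6509 cells with a productive TRB and by 175 of 4344 clones, and they are 3 of the 22 TRBV names in the tables. TRBV26 was used by 131 clones (188 cells), TRBV23 by 30 clones (68 cells) and TRBV30 by 14 clones (17 cells). The chains were read from CD45+ cells sorted from the parenchyma of the brain of C57BL/6 mice, 2 receptor libraries from 5xFAD;Cxcr6-/- animals and 2 from 5xFAD animals. All 4 carry the 5xFAD transgenes, human amyloid precursor protein and presenilin with familial Alzheimer's disease mutations driven by a neuronal Thy1 promoter, and the compared groups differ by the germline deletion of Cxcr6, a chemokine receptor of tissue-resident T cells. Ages and the number of animals per library were not given in the labels, the paired gene expression samples were not analysed here, and CD4 or CD8 lineage was not assigned.

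A beta chain is built in the thymus by joining 1 V, 1 D and 1 J segment, with bases trimmed and inserted at the joints. The V segment encodes the CDR1 and CDR2 loops, which mainly touch the presenting MHC molecule, and the joint encodes CDR3, which mainly touches the peptide. Most T cells keep 1 productive beta chain, because a successful rearrangement halts the other allele. TRBV26 is the older Vbeta3, whose T cells are deleted in mouse strains that carry certain superantigens of endogenous mammary tumour viruses. TRBV23 is the older Vbeta20 and TRBV30 the older Vbeta18.

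On GRCm38, TRBV23 (chromosome 6, 41216073 to 41216526, plus strand) lies 316675 bases before the first base of TRBD1. TRBV26 (41227505 to 41227993) lies 305208 bases before it, with the pseudogene TRBV24 between TRBV23 and TRBV26. TRBV30 (41281376 to 41281990) lies 251211 bases before TRBD1 and follows TRBV29. All 3 are annotated as TR_V_gene. Past TRBV30 the next TRBV is TRBV31, on the minus strand beyond the J segments. The germline stretch from the conserved cysteine codon to the end of each V segment is what every CDR3 below starts from, so it is shown first.
TRBV23 germline CDR3 start: tgctccagcagtcaatc
TRBV26 germline CDR3 start: tgtgccagcagtctgtc
TRBV30 germline CDR3 start: tgtagttctagaga
TRBV30 brings 14 bases into the joint, together with TRBV20 the shortest stretch of the 21 TRBV names with a germline match, against 17 bases for TRBV23 and TRBV26.

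The segments are not close copies. TRBV23 and TRBV26 were each other's closest relative, with 73.7% identical bases over 274 aligned positions, and TRBV30 was closest to TRBV20 with 59.5%. Their germline loops show this relation, and capitals mark the bases at which TRBV23 and TRBV26 differ.
TRBV23 CDR1: aagggGcaCAcTgCt
TRBV26 CDR1: aagggAcaTCcAgTt
TRBV30 CDR1: agtcaagttgtttcg
TRBV23 CDR2: tttcagaatcaaCaGCCt
TRBV26 CDR2: tttcagaatcaaGaAGTt
TRBV30 CDR2: gcaaatgaaggctctgaagcc
CDR1 differed at 5 of 15 bases and CDR2 at 4 of 18 bases between TRBV23 and TRBV26. TRBV30 has a CDR2 of 7 residues, against 6 residues in the other members.

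The 5xFAD;Cxcr6-/- libraries held 745 and 1304 cells with a TRB in 555 and 1028 clones, and the 5xFAD libraries 2022 and 2438 cells in 1272 and 1489 clones. Total UMIs, the counts of original transcripts, were 13460 and 22340 in 5xFAD;Cxcr6-/- and 32169 and 34772 in 5xFAD. Cells with 2 productive TRB made up 8.19% and 4.22% of TRB cells in 5xFAD;Cxcr6-/-, against 4.06% and 3.61% in 5xFAD. Of the 61 such cells in 5xFAD;Cxcr6-/- library 1, 37 belonged to 1 clone, described below. Clones with TRAV11 joined to TRAJ18, the alpha chain of invariant natural killer T cells, are called iNKT-like and made up 4.32% and 2.14% of clones in 5xFAD;Cxcr6-/- and 16.4% and 10.7% in 5xFAD. Of 6658 barcodes, 28 occurred in more than 1 library, with 0 sharing a chain and 0 carrying a member. A clone is a deposited clonotype of 1 library, sized by its cells with a TRB, and an expanded clone has 2 or more cells. The labels do not say whether libraries of a genotype are separate mice, so p-values measure the spread between these libraries. With 2 libraries against 2 the smallest exact permutation p is 0.333, and a sign-flip test over 4 libraries cannot go below 0.125. Intervals are 95% Clopper-Pearson and cover counting error only.

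The 3 segments together took a larger share of clones when Cxcr6 was deleted, without overlap of the libraries. The summed shares were 4.86% and 5.45% of clones in 5xFAD;Cxcr6-/- (27 of 555 and 56 of 1028), against 3.14% and 3.49% in 5xFAD (40 of 1272 and 52 of 1489). The mean was 5.16% ± 0.412 in 5xFAD;Cxcr6-/- and 3.32% ± 0.246 in 5xFAD (SD, n = 2 each), a difference of 1.84 percentage points with exact two-sided permutation p = 0.333. The difference exceeded the SD of either genotype. Without iNKT-like and MAIT-like clones the shares were 5.08% and 5.57% in 5xFAD;Cxcr6-/- and 3.68% and 3.93% in 5xFAD, so the groups remained apart at a smaller difference of 1.52 points.

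TRBV26 accounted for most of this. It was used by 18 of 555 and 42 of 1028 clones in 5xFAD;Cxcr6-/-, 3.24% (interval 1.93 to 5.08) and 4.09% (2.96 to 5.48). In 5xFAD it was used by 32 of 1272 and 39 of 1489 clones, 2.52% (1.73 to 3.53) and 2.62% (1.87 to 3.56). Both 5xFAD;Cxcr6-/- libraries were above both 5xFAD libraries, although the intervals overlap. TRBV23 was used by 0.901% and 0.973% of clones in 5xFAD;Cxcr6-/- (5 and 10 clones), against 0.393% and 0.672% in 5xFAD (5 and 10 clones). TRBV30 was used by 0.721% and 0.389% of clones in 5xFAD;Cxcr6-/- (4 clones each), against 0.236% and 0.201% in 5xFAD (3 clones each). All 3 members had shares without overlap, as had 32.2% of the 152 V and J segments tested in the same direction and 3 of 19 other TRBV names.

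**Figure D1:**
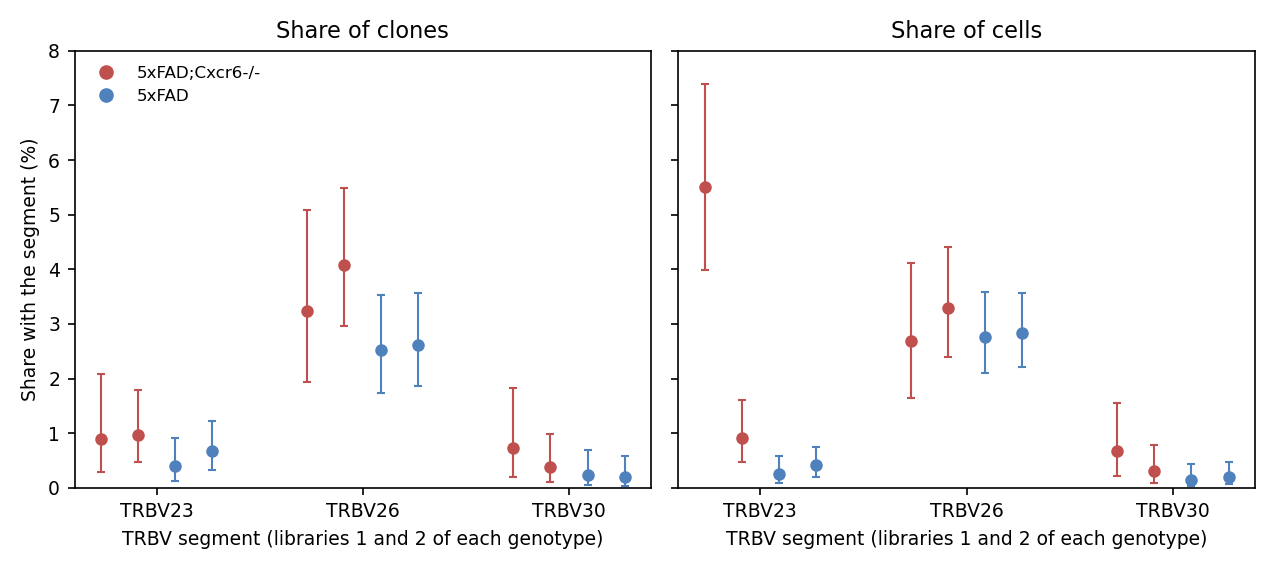
Share of clones (left) and of cells (right) with each segment in each library, in percent of those with a productive TRB, red for 5xFAD;Cxcr6-/- and blue for 5xFAD, with 95% Clopper-Pearson bars. By clones every red point of a segment is above every blue one, and by cells TRBV23 reaches 5.50% in 5xFAD;Cxcr6-/- library 1 while TRBV26 overlaps between genotypes.

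None of the members passed edgeR's quasi-likelihood test on clones, fitted over 152 segments, of which 2 were called (1.32%), TRAV11 and TRAJ18, both lower in 5xFAD;Cxcr6-/-. The log2 fold change of 5xFAD;Cxcr6-/- over 5xFAD was 0.55 for TRBV26 (SE 0.23, edgeR adjusted p = 0.549). It was 0.79 for TRBV23 (SE 0.58) and 1.18 for TRBV30 (SE 0.94), each with an edgeR adjusted p of 0.625. The 19 other TRBV names had a median log2 fold change of 0.03 (range -0.54 to 0.64), and 0 of them were called. Over all 152 segments the median was 0.19. Without iNKT-like and MAIT-like clones, TRBV26 was at 0.39 (SE 0.22, edgeR adjusted p = 0.892). TRBV26 was at 0.33 without 5xFAD;Cxcr6-/- library 2 and at 0.10 by cells. TRBV23 was at 0.49 without 5xFAD library 1, 1.24 without 5xFAD library 2, 0.45 without 2-TRB clones and 3.19 by cells, and edgeR or DESeq2 adjusted p ranged from 0.386 to 0.971 over the alternatives of these 3 segments.

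In the whole TRBV array the 3 members did not sit at one level. By mean share over the 4 libraries, TRBV26 ranked 15 of 22 names at 3.12% of clones, TRBV23 ranked 21 at 0.735% and TRBV30 ranked 22 at 0.387%. The lowest TRBV26 library (2.52%) was above the highest TRBV23 library (0.973%), so these neighbours along the locus differed beyond their spread. TRBV23 and TRBV30 overlapped within it, at 0.393% to 0.973% and 0.201% to 0.721%. TRBV29, which lies between TRBV26 and TRBV30, took 6.67% and 4.47% of clones in 5xFAD;Cxcr6-/- and 9.28% and 5.91% in 5xFAD. By the root mean square distance between log2 shares centred over the 4 libraries, TRBV14 (0.11), TRBV10 (0.13) and TRBV31 (0.21) were closest to TRBV26 among 21 names. TRBV10, TRBV26 and TRBV12-2 were closest to TRBV23 (0.30 to 0.33), and TRBV10, TRBV3 and TRBV23 to TRBV30 (0.46 to 0.54). TRBV10 thus stood near all 3 members, with 4.68% and 4.77% of clones in 5xFAD;Cxcr6-/- against 3.07% and 3.02% in 5xFAD.

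**Figure D2:**
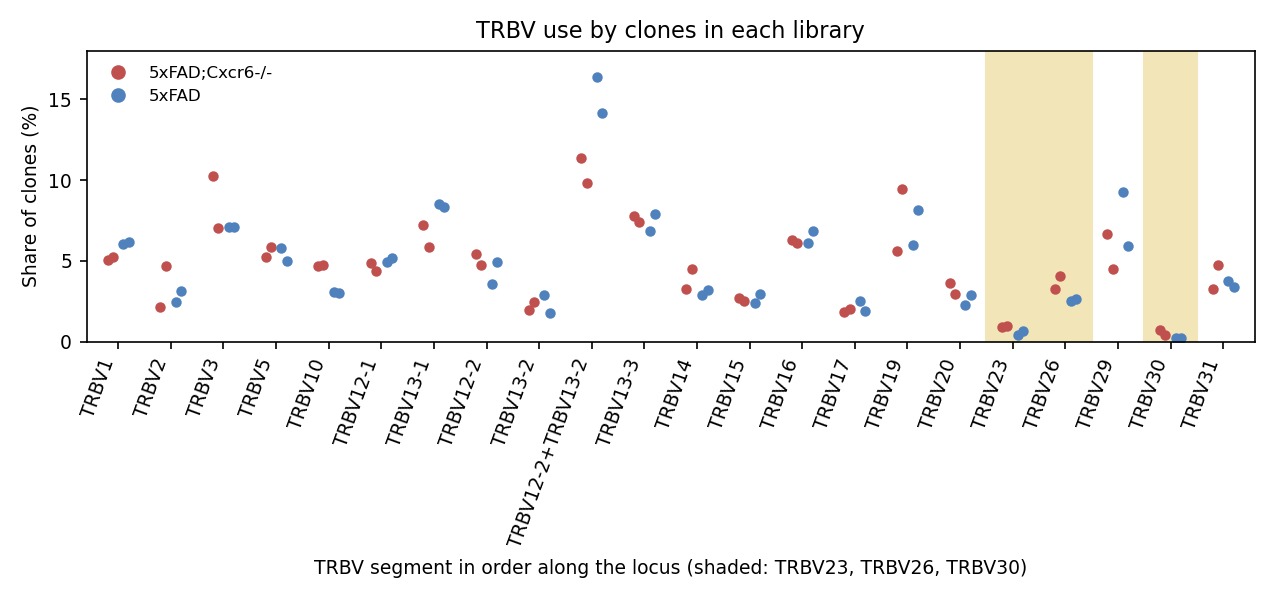
Share of clones, in percent, with each of the 22 TRBV names in order along the locus, 1 point per library, red for 5xFAD;Cxcr6-/- and blue for 5xFAD, with TRBV23, TRBV26 and TRBV30 shaded. TRBV23 and TRBV30 are the least used names by mean share and stay below 1% in every library, while TRBV26 lies between 2.52% and 4.09%.

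Counted by cells, 1 library set the picture. The 3 segments were in 8.86% and 4.52% of cells in 5xFAD;Cxcr6-/-, against 3.17% and 3.45% in 5xFAD, a mean of 6.69% ± 3.06 and 3.31% ± 0.198 (SD, n = 2 each, exact permutation p = 0.333). TRBV23 was in 41 and 12 cells of the 5xFAD;Cxcr6-/- libraries (5.50% and 0.920%), against 5 and 10 cells of the 5xFAD libraries (0.247% and 0.410%). TRBV26 was in 2.68% and 3.30% of cells in 5xFAD;Cxcr6-/- and in 2.77% and 2.83% in 5xFAD, where the groups overlap (exact permutation p = 1). TRBV30 was in 5 and 4 cells of 5xFAD;Cxcr6-/- and in 3 and 5 cells of 5xFAD. Of the 41 TRBV23 cells in 5xFAD;Cxcr6-/- library 1, 37 belonged to a single clone. The summed difference of 3.39 points between genotypes was 1.78 points without the largest member clone of each library. It was 0.865 points without the 2 TRBV23 chains described below that lack the end phenylalanine, 1 of them that of this clone, with 3.89% and 4.45% of cells in 5xFAD;Cxcr6-/- and 3.17% and 3.45% in 5xFAD. That last setting was chosen after seeing the data. Without 5xFAD;Cxcr6-/- library 1 the difference was 1.22 points, and without library 2 it was 5.55.

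That clone held 51 cells, 6.85% of the TRB cells of 5xFAD;Cxcr6-/- library 1 (interval 5.14 to 8.90), and was its largest. All 51 cells had a TRBV17 chain joined to TRBJ2-7, 47 had TRAV6N-7 joined to TRAJ17, and 37 also had TRBV23 joined to TRBJ1-1. The remaining 14 cells had TRBV17 as their only TRB, and 0 cells outside the clone carried either beta chain. TRBV17 was named here after its values were seen. The CDR3 of both beta chains are shown because they define the clone, with capitals for bases that match neither germline end.
TRBV17 and TRBJ2-7 CDR3: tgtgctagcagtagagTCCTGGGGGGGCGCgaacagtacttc
TRBV23 and TRBJ1-1 CDR3: tgctccagcagtcGACAA
Within this CDR3 alone no J base was matched, so its last base is in capitals, while in the longer stretch shown further on that base is the start of a TRBJ1-1 match.

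The TRBV23 chain was the weaker beta chain of its cells. In the 37 cells with both, TRBV17 had a median of 23 UMIs (6 to 65) and TRBV23 a median of 7 UMIs (2 to 18). TRBV17 was higher in 36 of 37 cells. In the 14 cells without TRBV23, TRBV17 had a median of 13 UMIs (4 to 23), so those cells were also the shallower ones. Whether depth alone sets the missing TRBV23 chains was not tested.

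**Figure D3:**
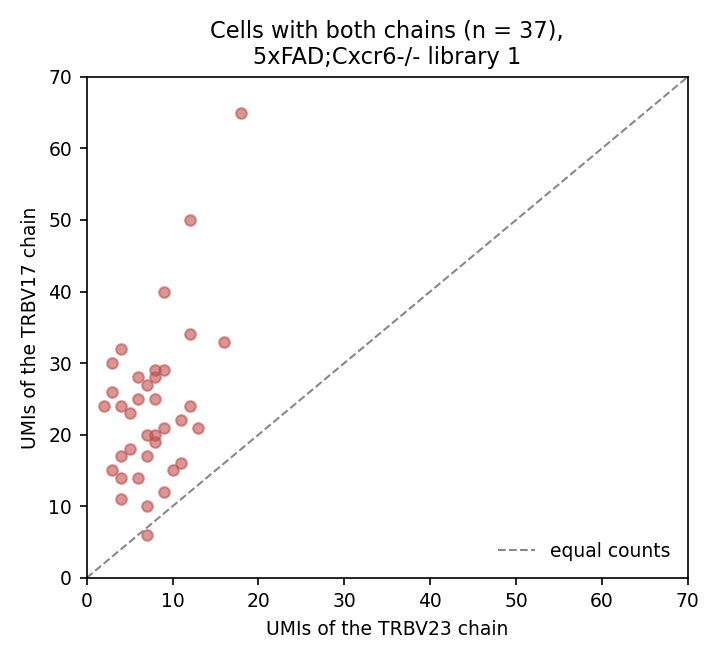
UMI counts of the TRBV17 chain (vertical) against the TRBV23 chain (horizontal) in the 37 cells of 5xFAD;Cxcr6-/- library 1 that carried both, 1 point per cell, with a dashed line at equal counts. Points lie above the line in 36 cells, with medians of 23 and 7 UMIs.

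This TRBV23 chain had an unusual joint. The beta CDR3 normally ends in the phenylalanine that opens the phenylalanine-glycine motif of the J segment. The deposited CDR3 of this chain has 6 residues (18 bases) and ends in a glutamine codon. Read on to the end of the J segment, the contig lacked the first base of TRBJ1-1, matched the next 7 and the last 21, and lacked the 19 of 48 germline bases between them, which hold the codons of that motif. The pair is shown because the loss cannot be seen from the CDR3 alone. In the chain, capitals mark bases that match neither end, and in the germline J they mark the 19 missing bases.
TRBV23 chain from the cysteine codon to the J end: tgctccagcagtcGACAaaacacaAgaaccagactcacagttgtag
TRBJ1-1 germline: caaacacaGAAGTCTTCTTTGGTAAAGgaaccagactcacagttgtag
The deposited table still marked the chain as productive. Of all 4580 TRB chains counted once per clone, 2 did not end in phenylalanine, and both were TRBV23. Neither was the only TRB of its clone. The other was in 1 cell of 5xFAD;Cxcr6-/- library 2, joined to TRBJ2-7 beside a TRBV29 chain, with the CDR3 below.
TRBV23 and TRBJ2-7 CDR3: tgctccagcagCCACGGGACAGGGATG

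CDR3 loops of the 3 segments were slightly shorter than those of other TRBV names in every library. The mean lengths were 12.7 and 13.3 residues for the members against 13.9 and 13.9 for other TRBV in 5xFAD;Cxcr6-/-. In 5xFAD they were 13.8 and 13.5 residues for the members against 14.0 and 13.9 for other TRBV. The mean difference was -0.60 residues (SD 0.410 over 4 libraries), lower in 4 of 4 libraries, with exact sign-flip p = 0.125, the smallest possible. Between genotypes the members' mean was 13.0 ± 0.424 residues in 5xFAD;Cxcr6-/- and 13.6 ± 0.239 in 5xFAD (SD, n = 2 each), a difference of -0.63 with exact permutation p = 0.333. It was -0.33 without 5xFAD;Cxcr6-/- library 1, -0.39 with clones joined by a shared TRB and TRA, and -2.42 by cells. By cells the difference from other TRBV was -1.51 residues, and between medians it was -0.25. The members' means by cells were 9.11 and 13.3 residues in 5xFAD;Cxcr6-/- and 14.0 and 13.3 in 5xFAD. In 5xFAD;Cxcr6-/- library 1, 37 of 66 member cells carried the 6-residue chain of the 51-cell clone. Without chains lacking the end phenylalanine, a setting chosen after seeing the data, the difference by clones was -0.51 from other TRBV. Between genotypes it was then -0.46.

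Each member contributed in its own way. TRBV30 had the shortest mean of the 22 names, 12.2 residues ± 1.85 (SD, 14 chains), TRBV20 and TRBV23 came next at 12.9 and 13.0 ± 2.44 (30 chains for TRBV23), and TRBV26 ranked 6 at 13.6 ± 1.20 (131 chains). Other TRBV averaged 13.9 ± 1.48 over 4405 chains. The median was 14 residues for TRBV23, TRBV26 and other TRBV alike and 12 for TRBV30. TRBV26 minus other TRBV was -0.32 and -0.45 residues in 5xFAD;Cxcr6-/- and -0.44 and -0.13 in 5xFAD, below 0 in 4 of 4 libraries. TRBV23 averaged 10.4 residues over 5 chains in 5xFAD;Cxcr6-/- library 1, 2 of them with 6 residues, and 13.2 over 10 chains in library 2. In 5xFAD it averaged 14.6 and 13.3 residues, against 14.0 and 13.9 for other TRBV. Its low pooled mean thus rests largely on 1 library. TRBV30 was shorter in 3 of 4 libraries, with 5xFAD library 1 the exception at 14.7 residues over 3 chains. Chains of 15 or more residues made up 20.0% of the members and 34.8% of other TRBV.

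**Figure D4:**
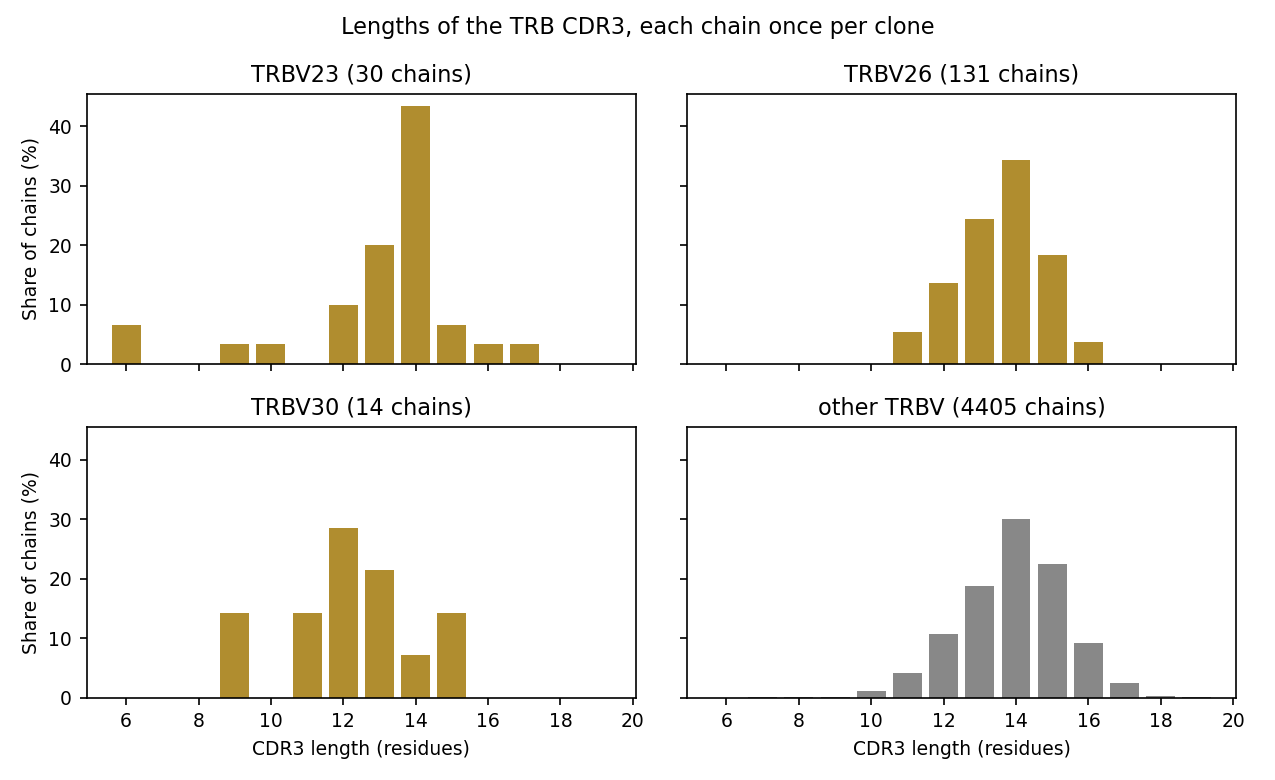
Distribution of TRB CDR3 length in residues, as a share of chains in percent, for TRBV23, TRBV26, TRBV30 and all other TRBV, each chain counted once per clone over the 4 libraries. TRBV30 is centred on 12 residues, TRBV26 has no loop under 11 residues, and TRBV23 has 2 chains of 6 residues.

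Among the members, very short loops occurred in TRBV23 of 1 library. Of 175 member chains, 15 had 11 or fewer residues, against 247 of 4405 other chains (8.57% and 5.61%). Loops of 8 or fewer residues numbered 2 of 175, against 8 of 4405 other chains. Both were TRBV23 with TRBJ1-1 from 5xFAD;Cxcr6-/- library 1, and 1 of them is the chain of the 51-cell clone. The other was in a single cell as its only TRB, with 22 UMIs, beside TRAV3D-3 joined to TRAJ22. It ended in phenylalanine and had 16 V bases, 0 inserted bases and 2 J bases.
TRBV23 and TRBJ1-1, 6 residues: tgctccagcagtcaattt
TRBV26 had 0 of 131 loops of 8 or fewer residues, which allows a share of up to 2.29%. The shortest TRBV26 loops had 11 residues and the shortest TRBV30 loops 9, and examples of both are shown with inserted bases in capitals.
TRBV26 and TRBJ1-1, 11 residues: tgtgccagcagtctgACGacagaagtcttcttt
TRBV30 and TRBJ2-7, 9 residues: tgtagttctGGGtatgaacagtacttc
TRBV30 and TRBJ2-5, 9 residues: tgtagttTCCCGGGACAGGGgtacttt

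The joints of TRBV26 held fewer inserted bases, counted as bases that match neither germline V nor J and so including D bases. The means were 7.17 and 8.83 bases for TRBV26 against 9.82 and 9.91 for other TRBV in 5xFAD;Cxcr6-/-. In 5xFAD they were 8.34 and 8.18 bases for TRBV26 against 10.2 and 9.85 for other TRBV. The mean difference was -1.80 bases (SD 0.651 over 4 libraries), lower in 4 of 4 libraries with exact sign-flip p = 0.125, in a comparison chosen after its values were seen. Over all libraries the TRBV26 mean of 8.29 bases was the lowest of the 21 matched names, followed by 8.86 for TRBV30 and 8.90 for TRBV20. TRBV23 had 9.93 inserted bases, close to the 9.95 of other TRBV, but kept 15.03 J bases against 18.5 in TRBV26. By library TRBV23 kept 9.0 and 14.8 J bases in 5xFAD;Cxcr6-/- and 17.4 and 17.1 in 5xFAD. J bases were matched within the CDR3 only, so the 2 chains without the end phenylalanine counted as 0 J bases each.

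TRBJ2 segments, the downstream J cluster, were used less by the members in 3 of 4 libraries. They were joined in 63.0% and 58.9% of member chains against 59.5% and 65.9% of other chains in 5xFAD;Cxcr6-/-. In 5xFAD they were joined in 50.0% and 42.3% of member chains against 64.1% and 65.3% of other chains. The mean difference was -10.1 percentage points (SD 11.2 over 4 libraries, exact sign-flip p = 0.25). It was -5.86 points without 5xFAD library 2 and -20.5 points by cells. Within TRBV26 the TRBJ2 share was 77.8% (interval 52.4 to 93.6) and 64.3% (48.03 to 78.4) in 5xFAD;Cxcr6-/-, against 50.0% (31.9 to 68.1) and 30.8% (17.02 to 47.6) in 5xFAD. The TRBV26 mean was 71.03% ± 9.54 in 5xFAD;Cxcr6-/- and 40.4% ± 13.6 in 5xFAD (SD, n = 2 each, exact permutation p = 0.333), without overlap. This TRBV26 comparison was chosen after its values were seen, and overlap in TRBJ2 share was not counted for each other TRBV name.

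TRBJ1-1 was the most used J of TRBV23, with 10 of 30 chains, and was joined in 4 of 14 TRBV30 chains. TRBV26 joined it in 17 of 131 chains and other TRBV in 500 of 4405 (13.0% and 11.4%). The most used J of TRBV26 was TRBJ2-7 (18 of 131), then TRBJ1-1, with TRBJ1-2, TRBJ1-3 and TRBJ2-4 at 13 chains each. TRBV30 used TRBJ2-7 in 5 of 14 chains and TRBV23 in 6 of 30, where TRBJ2-5 followed with 4.

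Clone sizes of TRBV26 differed between the libraries of the genotypes more than its share of clones did. Expanded clones numbered 1 of 18 and 1 of 42 in 5xFAD;Cxcr6-/- (5.56% and 2.38%), against 6 of 32 and 7 of 39 in 5xFAD (18.8% and 17.9%). Cells in expanded clones made up 15% and 4.65% of TRBV26 cells in 5xFAD;Cxcr6-/- and 53.6% and 53.6% in 5xFAD. Other TRBV had 12.1% and 10.2% expanded clones in 5xFAD;Cxcr6-/- and 10.9% and 16.5% in 5xFAD. The 5xFAD libraries also held more cells, and the chance to see a clone again rises with the number of cells. The part of depth in the TRBV26 values was not tested.

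An interaction of expansion and genotype, a fit added after these values were seen, gave TRBV26 a log2 value of -2.21 (SE 1.01, unadjusted p = 0.0298, edgeR adjusted p = 0.945). TRBV23 went the other way at 5.97 (SE 3.01, unadjusted p = 0.0486, edgeR adjusted p = 0.945), a value that depends on the prior count because 0 TRBV23 clones were expanded in 5xFAD, and TRBV30 was at -0.09 (SE 1.98). The interaction called 0 of 152 segments by edgeR and 0 by DESeq2, with 5 and 2 at an unadjusted p under 0.05 (0% called). Over all 4 libraries the members were not called among expanded against single clones, where edgeR called 3 of 152 segments (1.97%), TRAV11 and TRAJ18 lower and TRAJ49 higher among expanded clones. Expanded over single clones, the log2 fold change was -0.14 for TRBV26 (SE 0.41, edgeR adjusted p = 0.877), and -0.37 for TRBV23 and 0.25 for TRBV30 with wider errors (SE 0.94 and 1.11). Each of these 3 signs turned when 1 library was left out. The share of expanded clones over the 3 segments was 11.1% and 5.36% in 5xFAD;Cxcr6-/- and 15% and 15.4% in 5xFAD.

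**Figure D5:**
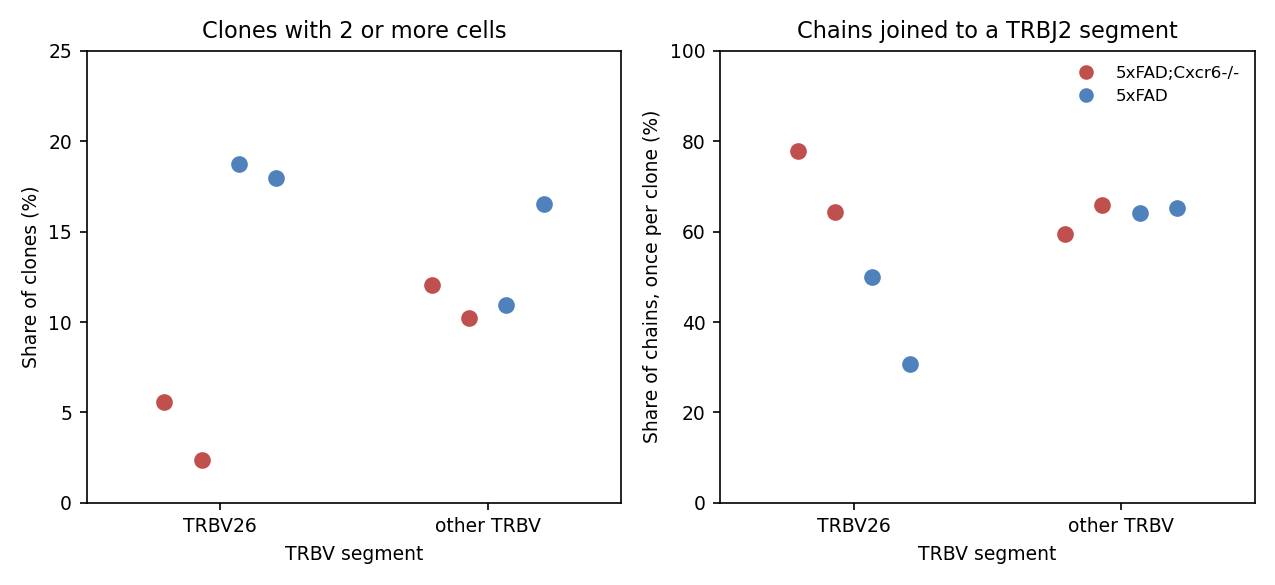
Share of clones with 2 or more cells (left) and share of chains joined to a TRBJ2 segment (right), in percent, for TRBV26 and for other TRBV, 1 point per library, red for 5xFAD;Cxcr6-/- and blue for 5xFAD. TRBV26 points do not overlap between genotypes in either panel, with 5.56% and 2.38% against 18.8% and 17.9% expanded. Those of other TRBV, taken as 1 group, lie between 10.2% and 16.5% expanded. Overlap was not counted for each other TRBV name, and with 2 libraries against 2 the smallest exact permutation p is 0.333.

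The largest TRBV26 clones came from the 5xFAD libraries. Their CDR3 are shown with inserted bases in capitals.
TRBV26 and TRBJ1-4, 20 cells of 5xFAD library 2: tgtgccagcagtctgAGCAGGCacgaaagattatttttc
TRBV26 and TRBJ2-7, 17 cells of 5xFAD library 1: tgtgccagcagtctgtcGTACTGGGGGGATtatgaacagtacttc
TRBV26 and TRBJ1-3, 6 cells of 5xFAD library 2: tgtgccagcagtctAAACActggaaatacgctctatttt
The 20-cell clone had TRAV6-7-DV9 joined to TRAJ52 in 12 of its cells, the 17-cell clone TRAV12-2 joined to TRAJ56 in 16 cells, and the 6-cell clone TRAV3D-3 joined to TRAJ53 in all 6. In 5xFAD;Cxcr6-/- the largest TRBV26 clones held 3 cells in library 1 and 2 cells in library 2.

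Outside the 51-cell clone, TRBV23 had 2 expanded clones, of 2 cells each, both in 5xFAD;Cxcr6-/- library 2 and both joined to TRBJ1-1. Their TRA chains were TRAV4-4-DV10 joined to TRAJ43 and TRAV6-6 joined to TRAJ40. In 5xFAD, 0 of 15 TRBV23 clones were expanded, which allows a share of up to 20%. TRBV30 had 1 expanded clone of 3 cells in 5xFAD library 2, the 9-residue chain with TRBJ2-7 shown above, and 1 of 2 cells in 5xFAD;Cxcr6-/- library 1.

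As a second TRB, the members were present in few clones. A member chain shared its clone with another TRB in 3 of 27 and 5 of 56 cases in 5xFAD;Cxcr6-/-, against 2 of 40 and 3 of 52 in 5xFAD. The corresponding shares were 11.1% and 8.93% in 5xFAD;Cxcr6-/- and 5.00% and 5.77% in 5xFAD, and for other TRBV 7.80% and 8.92% in 5xFAD;Cxcr6-/- and 12.2% and 10.8% in 5xFAD. The mean difference of members from other TRBV was -2.24 percentage points (SD 4.77 over 4 libraries, exact sign-flip p = 0.5), and -3.44 points without the 2 chains lacking the end phenylalanine. Counted by cells, 39 of 66 member cells of 5xFAD;Cxcr6-/- library 1 (59.1%) had 2 TRB, and 37 of these were in the 51-cell clone. Between clones with 2 TRB and with 1 TRB, edgeR called 0 of 34 TRB segments (0% called) and DESeq2 0, with 2 at an unadjusted p under 0.05 by each tool. TRBV23 was at a log2 fold change of 0.02 (SE 1.23, edgeR adjusted p = 0.985), TRBV26 at -0.60 (SE 0.56, edgeR adjusted p = 0.63) and TRBV30 at -0.44 (SE 1.87, edgeR adjusted p = 0.865).

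Beside the 51-cell clone, 12 cells in 12 clones had a member and another TRB, 9 of them with TRBV26. The partner chain had more UMIs in 8 of these cells and the member in 4. TRBV23 was the higher chain in both of its cells, with 14 UMIs against 10 for TRBV29 and 9 UMIs against 8 for TRBV31. The TRBV23 chain beside TRBV29 is the one joined to TRBJ2-7 that lacks the end phenylalanine. TRBV26 was higher in 2 of 9 cells, beside TRBV3 (9 against 5 UMIs) and TRBV19 (13 against 5). Of the 12 cells, 6 also had 2 TRA chains. Such cells can be dual-receptor T cells or doublets, and these files cannot tell them apart.

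Alpha partners of the members were varied. Of 175 member clones, 147 had a TRA, with 62 TRAV names among 167 chains. TRAV12-2 was the most frequent, in 10 of 147 member clones against 121 of 3467 other clones (6.80% and 3.49%), followed by TRAV12D-3 in 7 and TRAV16N, TRAV3D-3, TRAV6-6 and TRAV7D-2 in 6 each. The names TRAV12-2 and TRAV12D-3 belong to a family with near-identical copies, so their split in the deposited tables is uncertain. Cells with no TRA made up 4.55% and 16.9% of member cells against 15.9% and 15.4% of other TRBV cells in 5xFAD;Cxcr6-/-. In 5xFAD they made up 10.9% and 22.6% of member cells against 20.7% and 18.9% of other TRBV cells, so the members were lower in the first library of each genotype and higher in the second. Of the 66 member cells of 5xFAD;Cxcr6-/- library 1, 37 were in the 51-cell clone, and all 37 had its TRA. The TRAV partners were not compared by a test.

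The iNKT-like chain was nearly absent among the members. It was in 1 of 175 member clones, against 415 of 4182 other clones (0.571% and 9.92%). That clone, in 5xFAD library 1, was a single cell whose TRBV30 chain had 4 UMIs beside a TRBV12-2+TRBV13-2 chain with 11 UMIs. TRBV26 had 0 of 131 such clones, which allows a share of up to 2.29%. The iNKT-like share was not counted for each other TRBV name. Whether the near absence is particular to the members was therefore not tested. MAIT-like clones, which join TRAV1 to TRAJ33 as mucosal-associated invariant T cells do, numbered 0 of 175, which allows up to 1.71%, against 10 of 4182 other clones.

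A single member CDR3 was found in more than 1 library, once in 5xFAD;Cxcr6-/- library 1 and once in 5xFAD library 2. It has few inserted bases, shown in capitals.
TRBV26 and TRBJ1-1 in 2 libraries: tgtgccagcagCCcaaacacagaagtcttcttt
The cells had different alpha chains, TRAV1 joined to TRAJ9 and TRAV9N-4 joined to TRAJ15 in 5xFAD;Cxcr6-/- and TRAV1 joined to TRAJ22 in 5xFAD, and each TRBV26 chain had 2 UMIs. The 5xFAD;Cxcr6-/- cell also had a TRBV12-1 chain with 4 UMIs, so it is among the cells above that can be dual-receptor T cells or doublets. Of 168 distinct member chains 1 was shared by libraries (0.595%), against 6 of 4245 other chains (0.141%).

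The member chains were read at lower depth than others. The median was 7 UMIs per cell for the members (8 for TRBV23, 7 for TRBV26 and 6 for TRBV30) and 10 for other TRBV. In 5xFAD;Cxcr6-/- the medians per library were 8 and 9 for members and 11 and 10 for other TRBV. In 5xFAD they were 6 and 6 for members and 10 and 9 for other TRBV, so the pooled members were lower in 4 of 4 libraries. In 5xFAD;Cxcr6-/- library 2, however, TRBV23 (12 cells) and TRBV30 (4 cells) had medians of 10.5 and 13.5 UMIs, above other TRBV. Chains under 3 UMIs numbered 18 of 273 among member cells, 17 of them TRBV26.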

How the data were processed

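Receptor libraries were made with a 10x Chromium single-cell immune profiling kit, per the labels' protocols. Cell Ranger 6.0 and mm10 are named in the submitters' processing notes. For each assembled contig the deposited tables hold unnormalized read counts and UMI counts, per the file headers, and every contig used was marked productive by the authors' pipeline. Genotype and replicate number came from the labels. A clone was a deposited clonotype of 1 library with a TRB, and each TRB chain (V, J and CDR3 bases) was counted once per clone.

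Segments with at least 10 clones were tested with edgeR 4.0.16 (R 4.3.3) by the quasi-likelihood F test, with clone totals as offset and Benjamini-Hochberg adjustment at 0.05 over all segments. The library was a block for expanded and 2-TRB clones. SE is the absolute log2 fold change over the square root of F. Clones are counts within libraries, not replicates. DESeq2 1.42.0 was an alternative. The fits were also run on simulated data in which only the more frequent segments were given a difference. TRBV23 and TRBV30 were not among them, so that run does not cover these segments. Other values used exact two-sided permutation tests between genotypes and sign-flip tests over libraries in Python 3.11.15 with pandas 2.3.3. Germline V and J bases and coordinates came from GENCODE vM21 on GRCm38, the build mm10 names. Inserted bases are those left after the longest V and J matches.

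The members, lists and tests were chosen with earlier results of these data known. Named items were the 3 members, the 3 TRBV nearest each in centred log2 share, their most frequent TRBJ and TRAV, the 3 largest clones and 3 shortest CDR3 of each, CDR3 found in several libraries, and any called segment.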

Additional observations from a re-analysis of the deposited data

Results flagged for a closer look

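The share of chains that sit beside another TRB differed from that of other TRBV in opposite directions in the 2 genotypes. Members minus other TRBV was 3.31 and 0.00700 percentage points in the 5xFAD;Cxcr6-/- libraries and -7.19 and -5.08 points in the 5xFAD libraries, so the genotypes' means lay 7.79 points apart. The difference between genotypes was not tested. Without the 2 TRBV23 chains that lack the end phenylalanine, a setting chosen after seeing the data, the values were 0.0698 and -1.55 points in 5xFAD;Cxcr6-/- and remained -7.19 and -5.08 in 5xFAD, so the opposite directions did not hold. It rests on 8 member chains in 5xFAD;Cxcr6-/- and 5 in 5xFAD, and the value of the second 5xFAD;Cxcr6-/- library was close to 0.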

How the results depend on the processing

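Over 27 results and 315 alternative values, 290 kept their direction and their side of the threshold or stayed within 1.5 times a count, 15 turned direction and 10 counts moved further. The genotype fit called 2 segments, and 0 with cells, with distinct chains or without iNKT-like and MAIT-like clones, and 0 to 2 with 1 library left out. The log2 fold changes of the members stayed above 0 in its 16 alternatives, at 0.10 to 0.67 for TRBV26, 0.45 to 3.19 for TRBV23 and 0.81 to 1.68 for TRBV30. The expansion fit called 3 segments, 6 with TMM scaling, 0 with DESeq2, with 3 or more cells or without iNKT-like and MAIT-like clones, and 0 to 4 with 1 library left out (1 without 5xFAD library 1 and 0 without library 2). There TRBV30 turned to -0.19 with TMM scaling, -0.31 without 5xFAD;Cxcr6-/- library 1 and -0.28 without 5xFAD library 2. TRBV23 turned to 0.53 without 5xFAD library 2, and TRBV26 to 0.24 without 5xFAD;Cxcr6-/- library 2 and 0.13 with joined clones, where cells share a TRB and a TRA. With 1 library left out the ranges were -1.54 to 0.53 for TRBV23, -0.58 to 0.24 for TRBV26 and -0.31 to 0.70 for TRBV30. Between 2-TRB and 1-TRB clones TRBV23 turned to -0.38 without 5xFAD;Cxcr6-/- library 1, -1.07 without library 2 and -0.54 without the 51-cell clone, and TRBV30 to 0.0031 without 5xFAD;Cxcr6-/- library 2 (ranges -1.07 to 0.74 and -4.02 to 0.0031 with 1 library left out).

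The second-TRB difference from other TRBV turned to 9.99 points by cells (by clones, -4.09 to -0.588 with 1 library left out). By cells it was 47.9 and 0.398 points in 5xFAD;Cxcr6-/- and -4.82 and -3.51 points in 5xFAD. In 5xFAD;Cxcr6-/- library 1, 37 of 66 member cells were in the 51-cell clone, whose TRBV23 chain is joined to TRBJ1-1. The expansion difference turned to 0.49 points with joined clones and ranged from -2.32 to 0.658 with 1 library left out. The TRBJ2 difference between genotypes turned to -5.37 points by cells, and the median length of TRBV26 equalled that of other TRBV (0). The cause of these turns was not tested. The genotype difference in the summed share of cells ranged from 1.22 to 5.55 points with 1 library left out.

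Same-numbered libraries did not deviate together (correlation -0.047 over 152 segments). With 2 libraries of each genotype this value cannot exclude that same-numbered libraries were handled together, and the labels state no pairing. With the replicate block the genotype fit called 3 segments and TRBV26 was at 0.54. TRBV23 and TRBV30 rest on 30 and 14 clones, which limits every value given for them.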
